A study of Homo sapiens with 12 samples.

Results

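Cultures of HK-2, an immortalised epithelial line from the human renal proximal tubule, received Kbr (the treatment's name in the labels) at the dosage labelled high for 24 h and were compared with cultures given the control vehicle for the same time. Each group held 3 biological replicates, so the comparison used 6 of the 12 arrays of the series, and the other 6 arrays were Kbr and vehicle cultures at 48 h. All cultures had been seeded 24 h before treatment, were treated at about 90% confluency and shared a medium supplemented with epidermal growth factor, hydrocortisone, insulin, transferrin and selenite. The dose in molar units, the vehicle and the identity of Kbr beyond its name are not given in the sources used here, and HK-2 is a single immortalised line. RNA was measured on expression arrays, and every level below is a log2 value deposited by the authors after GCRMA background correction and normalisation. Genes were taken through probe sets that name 1 gene, 1 set per gene, and kept where the level exceeded 4 on at least 3 of the 12 arrays, which left 10574 of 19775 genes.

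As background, cells that meet reactive chemicals commonly raise a set of protective genes through the transcription factor NRF2. Its partner KEAP1 marks NRF2 for destruction until reactive cysteines on KEAP1 are modified, and NRF2 then acts with small MAF proteins on antioxidant response elements. Misfolded protein engages a separate factor, HSF1, which binds heat shock elements and raises chaperones. The proximal tubule is a frequent site of chemical injury because it takes up filtered and circulating compounds, and its cells normally carry dense transporters, tight junctions, a basement membrane and a primary cilium.

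Promoters of some members called higher that held the searched letters are shown first, because NRF2, HSF1 and the interferon-activated factors are known to act on such letters. Sequences come from the RefSeq windows of build GRCh38.p14, which run from 250 bases before to 50 after the annotated start, are written 5′ to 3′ on the gene's strand, and carry the searched motif in capitals, on whichever strand it matched. To keep to the promoter, the stretch around the match is given. For the core of the antioxidant response element, TGACNNNGC, this is shown for GCLM (the modifier subunit of glutathione synthesis, chr1:93909411-93909514, minus strand), TXNRD1 (thioredoxin reductase, chr12:104215630-104215738, plus strand) and SLC3A2 (the heavy chain of the cystine carrier, chr11:62881612-62881718, plus strand).
GCLM: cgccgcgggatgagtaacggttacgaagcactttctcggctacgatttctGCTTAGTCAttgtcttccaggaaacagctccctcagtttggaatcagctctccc
TXNRD1: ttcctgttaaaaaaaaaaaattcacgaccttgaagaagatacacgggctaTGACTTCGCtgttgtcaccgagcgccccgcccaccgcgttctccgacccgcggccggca
SLC3A2: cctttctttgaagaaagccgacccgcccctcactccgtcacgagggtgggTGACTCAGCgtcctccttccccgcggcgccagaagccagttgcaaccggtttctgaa
For the heat shock element, searched as GAA, TTC and GAA with any 2 bases between each, it is shown for CHORDC1 (an HSP90 co-chaperone, chr11:90223047-90223159, minus strand) and DNAJA1 (an HSP70 co-chaperone, chr9:33025226-33025292, plus strand); the capitals in CHORDC1 span overlapping matches.
CHORDC1: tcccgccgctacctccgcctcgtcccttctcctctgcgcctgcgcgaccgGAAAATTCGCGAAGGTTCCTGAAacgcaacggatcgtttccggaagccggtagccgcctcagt
DNAJA1: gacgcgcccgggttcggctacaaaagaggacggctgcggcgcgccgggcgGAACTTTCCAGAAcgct
For the core of the interferon-stimulated response element, TTTC, any 2 bases and TTTC, it is shown for IFIT1 (an antiviral RNA-binding protein, chr10:89392457-89392566, plus strand).
IFIT1: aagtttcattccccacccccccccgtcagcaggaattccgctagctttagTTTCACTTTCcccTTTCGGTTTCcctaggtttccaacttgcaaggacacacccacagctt
Of the 36 members of the oxidant lists called higher, 30 matched a window and 8 of these held the antioxidant core. The share was 3 of 27 for members called lower, 15.66% for the 8774 tested genes with a window and 13.35% for all 35116 windows. HMOX1, NQO1, GCLC and SRXN1 were not among the 8. Of 26 matched chaperone members called higher, 3 held the heat shock letters, against 0.32% of tested genes and 0.49% of all windows. Of 3 matched interferon-stimulated members called higher 2 held the interferon core, as did 2 of 5 called lower, against 2.70% of tested genes and 3.57% of all windows. The lists were chosen with earlier results of these data known, so these shares are no test. A match is a description of the letters in these windows only.

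The 12 arrays were alike in median level, 2.89 to 2.96 over all probe sets, and in the share of probe sets over log2 4, 39.1% to 39.9%, and no array stood apart among those at 24 h. The number of arrays limits the precision. Epithelial markers were measured for 8 of 8 listed genes, whereas only 3 of 14 listed proximal tubule markers (PAX8, SLC3A1 and GATM) passed the expression filter. The defining transporters and endocytic receptors of that segment, LRP2, CUBN, AQP1 and SLC34A1, were not among them, their levels staying between 2.07 and 2.95, so the label was borne out as epithelium but not as differentiated tubule. None of the 5 leukocyte markers with a probe set and 1 of 7 endothelial markers passed the filter. Of the 7 fibroblast markers 3 did, COL1A1, DCN and LUM, and these are described with the matrix genes.

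More genes fell than rose after 24 h of Kbr, and the falls were the larger. With limma fitted over all 12 arrays and p-values adjusted by the Benjamini-Hochberg method over the 10574 genes, 3429 genes (32.4%) passed an adjusted p of 0.05, which is what "called", "rose" and "fell" mean below. Of these, 1315 (12.4% of the tested genes) were higher and 2114 (20.0%) lower, and the 2 shares are the background against which counts of list members are read. At least 2-fold changes numbered 129 higher (1.22%) and 637 lower (6.02%). The median called rise was 0.57 and the median called fall -0.77 on the log2 scale, and the median over all tested genes was -0.06. Kbr and control arrays did not overlap for 5457 genes (51.6%), and all 3 same-numbered pairs differed in 1 direction for 8166 (77.2%). Among the 3429 called genes 3372 did not overlap, and the largest changes were named only where that held. A lack of overlap in a called gene below therefore describes its arrays and adds no separate support. The surplus of falls depended on scaling, since falls and rises numbered 1729 and 1683 when each array was centred on its median (49.3% higher) and 1681 and 2155 after quantile normalisation (56.2% higher, against 38.3% as deposited). With the replicate number as a block, 5072 genes (48.0%) were called, 1963 higher and 3109 lower. Without control replicate 1, the array whose absence removed most calls, 2255 genes were called, 857 higher and 1398 lower.

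**Figure D1:**
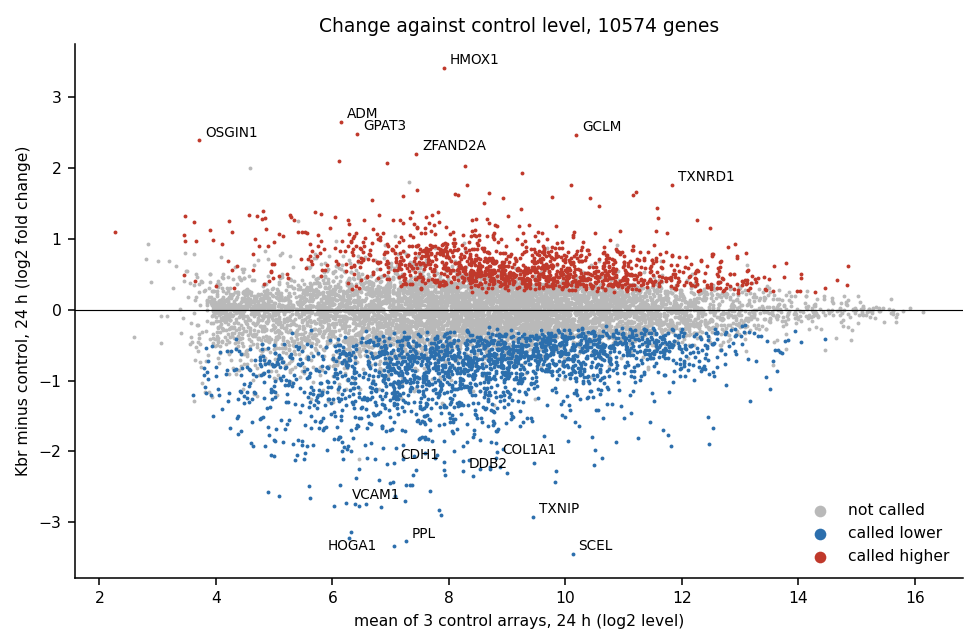
Log2 fold change (Kbr minus control, 24 h) against the mean log2 level of the 3 control arrays for the 10574 tested genes, each point 1 gene, red where called higher, blue where called lower and grey where not called. HMOX1 stands alone at the top at 3.41, and SCEL, HOGA1 and PPL mark the bottom at -3.44, -3.34 and -3.27.

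Falls of 2-fold or more were most frequent among genes with a control level under 8. They numbered 129 of 1572 genes under 6 and 274 of 2727 between 6 and 8. Between 8 and 10 they numbered 173 of 3456 genes, and between 10 and 12 they numbered 55 of 2050. Falls of any size made up 15.3%, 23.1%, 20.5% and 21.2% of these 4 classes, so they were not most frequent at the lowest levels. Rises made up 4.52%, 10.1%, 15.3% and 16.4%. Among the 769 genes over 12, 13.3% fell and 13.4% rose, and only 6 of these fell and 2 rose by 2-fold or more. The control arrays were all above 4 and the Kbr arrays all at or below 4 for 57 called genes, while the reverse held for 4. The 57 included ENDOD1, an endonuclease-domain gene, at 3.19, 2.95 and 3.04 on the Kbr arrays and 6.07, 6.55 and 6.21 on the control arrays, and GOLT1A, a Golgi transport gene, at 3.60, 3.42 and 3.92 on the Kbr arrays and 6.75, 6.29 and 6.14 on the control arrays. Levels at or under 4 are close to the floor of these arrays, so these sizes are bounds. With such levels set to 4 the changes were -2.28 and -2.39, the least that these data allow. The 4 that appeared were VAMP1, RSAD2, ZNF480 and BEND6, with lower bounds, set in the same way, of 0.79, 0.86, 0.44 and 0.62 (limma adjusted p = 0.0338 for RSAD2). BEND6 exceeded 4 on the 3 Kbr arrays at 24 h and on no other array. It thus passed the filter only through the group where it was high, and no p is given for it. The same held for 4 genes over 4 only on the control arrays at 24 h, all called. VAMP1 and ZNF480 exceeded 4 on the Kbr arrays at both times and on no control array. ENDOD1, and AQP3, COL4A5, MAML2 and VCAM1 named below, exceeded 4 on the control arrays at both times and on no Kbr array. They passed the filter only through the side where they were high, so no p at 24 h is given for them either. The call of RSAD2, an antiviral enzyme, was lost when any 24 h array other than Kbr replicate 3 was left out, and that of ZNF480, a zinc finger gene, without Kbr replicate 3 or control replicate 1.

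The largest rise of all was in haem breakdown. HMOX1, the haem oxygenase that opens the haem ring and frees iron, read 11.59, 11.14 and 11.22 on the Kbr arrays and 7.98, 7.58 and 8.17 on the control arrays (replicates 1, 2 and 3 in that order here and below). Even the closest Kbr and control arrays were 2.97 log2 units apart, and the log2 fold change was 3.41 (SE 0.24, adjusted p = 1.68e-05). The ferritin light chain FTL, which stores the freed iron, rose by 0.34 (SE 0.08, adjusted p = 0.0108) from 14.83 ± 0.06 (SD, n = 3), and FLVCR1, a haem exporter, rose by 0.71 (SE 0.12, adjusted p = 0.0015). The iron exporter ferroportin, SLC40A1, fell instead, at 5.26, 5.18 and 4.26 on the Kbr arrays and 7.95, 7.43 and 6.72 on the control arrays, a log2 change of -2.47 (SE 0.33, adjusted p = 0.000501) with no overlap between groups. The haem synthesis enzymes split. ALAS1, the entry enzyme, rose by 0.48 and CPOX by 0.59, whereas ALAD and PPOX (under 4 on 1 of 3 Kbr arrays) fell, with log2 changes of -1.10 and -2.38 (limma adjusted p = 0.0105, 0.00608, 0.00458 and 0.000276). ERFE, erythroferrone, a secreted regulator of iron outside the list counted next, fell from 9.00 ± 0.32 to 6.69 ± 0.65 (SD, n = 3 each), a log2 change of -2.31 (SE 0.33, adjusted p = 0.000702). Over the list, 7 of 22 tested members rose and 7 fell, with a median change of -0.01, and the falls numbered 4 without Kbr replicate 1, Kbr replicate 2 or control replicate 3, as they did after median centring.

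Both subunits of the ligase that starts glutathione synthesis rose. GCLM read 12.85, 12.48 and 12.63 on the Kbr arrays and 10.11, 9.88 and 10.57 on the control arrays. GCLC, the catalytic subunit of the same ligase, read 10.20, 10.10 and 9.69 on the Kbr arrays and 8.86, 8.79 and 8.74 on the control arrays. The 2 groups stood apart on every array, and the changes were 2.47 (SE 0.19, adjusted p = 3.09e-05) and 1.20 (SE 0.26, adjusted p = 0.00566). SLC3A2, whose promoter is shown above, read 10.32, 9.91 and 9.99 on the Kbr arrays and 8.31, 8.10 and 8.55 on the control arrays and rose by 1.75 (SE 0.37, adjusted p = 0.00533). Its partner SLC7A11, the cystine-carrying chain, rose by 2.07 (SE 0.56, adjusted p = 0.0172) with no overlap between groups, but its call was lost without Kbr replicate 1, Kbr replicate 2 or control replicate 1. GSR, which returns oxidised glutathione to its reduced form, rose by 0.93 (SE 0.15, adjusted p = 0.00133). Falls in this list included the glutathione transferases GSTO2 at -1.43 (SE 0.11, adjusted p = 2.44e-05), GSTK1 at -1.12 (SE 0.15, adjusted p = 0.000476) and GSTZ1 at -1.09 (SE 0.21, adjusted p = 0.00281), and HAGH, a glyoxalase that releases glutathione, at -0.98 (SE 0.15, adjusted p = 0.000822). In all, 5 of 24 tested members rose and 7 fell, and 11 fell with the replicate block.

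The thioredoxin system held both rises and falls. TXNRD1 read 13.67, 13.69 and 13.45 on the Kbr arrays and 11.80, 11.97 and 11.74 on the control arrays, a change of 1.76 (SE 0.12, adjusted p = 1.68e-05). SRXN1, which repairs over-oxidised peroxiredoxins, read 9.86, 9.61 and 9.87 on the Kbr arrays and 8.09, 7.74 and 8.63 on the control arrays, a change of 1.62 (SE 0.19, adjusted p = 0.000284). TXNIP, which binds and inhibits thioredoxin, read 5.63, 6.54 and 7.40 on the Kbr arrays and 9.35, 9.86 and 9.13 on the control arrays. Its Kbr arrays were the more scattered (SD 0.88 against 0.37), yet the highest of them lay 1.73 below the lowest control array, and it fell by 2.92 (SE 0.59, adjusted p = 0.00403). Other falls were in reducing enzymes, the methionine sulphoxide reductases MSRB2 (-0.72, SE 0.13, adjusted p = 0.00215) and MSRB3 (-0.69, SE 0.21, adjusted p = 0.0278) and the glutaredoxin GLRX (-0.61, SE 0.12, adjusted p = 0.00294). The call of MSRB3 was lost with no filter and without Kbr replicate 2, control replicate 1 or control replicate 3. Of 22 tested members 7 rose (31.8%) and 5 fell (22.7%, near the background share), and 3 fell without Kbr replicate 2 or control replicate 1. Cytosolic superoxide dismutase SOD1 rose by 0.43 (adjusted p = 0.00815), and catalase, CAT, at -0.21 (adjusted p = 0.402), was not called.

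Among quinone reductases and regulators around NRF2 there were also rises. NQO1, which reduces quinones, rose from 11.21 ± 0.08 to 12.87 ± 0.25 (SD, n = 3 each), a change of 1.66 (SE 0.14, adjusted p = 4.77e-05). UGDH, which supplies UDP-glucuronate for conjugation, rose by 1.12, and ME1, an NADPH-making malic enzyme, by 0.98 (limma adjusted p = 0.00104 and 0.000191). In the list of NADPH supply that holds ME1, 2 of 14 rose, near the background share, and 4 fell (4 and 6 with the replicate block). Those falls included the hexose phosphate dehydrogenase H6PD (-1.45, SE 0.25, adjusted p = 0.00169) and PGLS, the next enzyme of the pentose phosphate pathway (-0.87, SE 0.16, adjusted p = 0.00281). The rises numbered 1 without Kbr replicate 1, Kbr replicate 3, control replicate 1 or control replicate 2, and 4 after median centring. Among 17 tested reductases 6 rose and 5 fell, with 3 rising without Kbr replicate 1 and 2 falling without Kbr replicate 3, control replicate 1 or control replicate 2. Among 18 tested partners of NRF2, 8 rose (44.4%) and 1, BACH1, fell (3 with the replicate block). OSGIN1, a growth inhibitor under 4 on 1 of 3 control arrays, rose by 2.39, TRIM16 by 2.02, the autophagy receptor SQSTM1, which also binds KEAP1, by 1.43, and the small MAF partner MAFG by 1.22 (limma adjusted p = 0.00737, 5.55e-06, 0.000381 and 0.00148). TRIM16 read 10.35, 10.34 and 10.24 on the Kbr arrays and 8.18, 8.17 and 8.50 on the control arrays, with its closest Kbr and control arrays 1.74 apart. NFE2L2, which encodes NRF2, was not called at 0.37 (SE 0.24, adjusted p = 0.271), and its arrays overlapped, although it was called with the replicate block (adjusted p = 0.0375). Its inhibitor KEAP1 rose by 0.59 (adjusted p = 0.0301), a call lost without Kbr replicate 1, Kbr replicate 3 or control replicate 2. The related factor NFE2L3 is outside that list, whose lowest change was -0.35, and fell by 2.43 (SE 0.38, adjusted p = 0.00103).

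**Figure D2:**
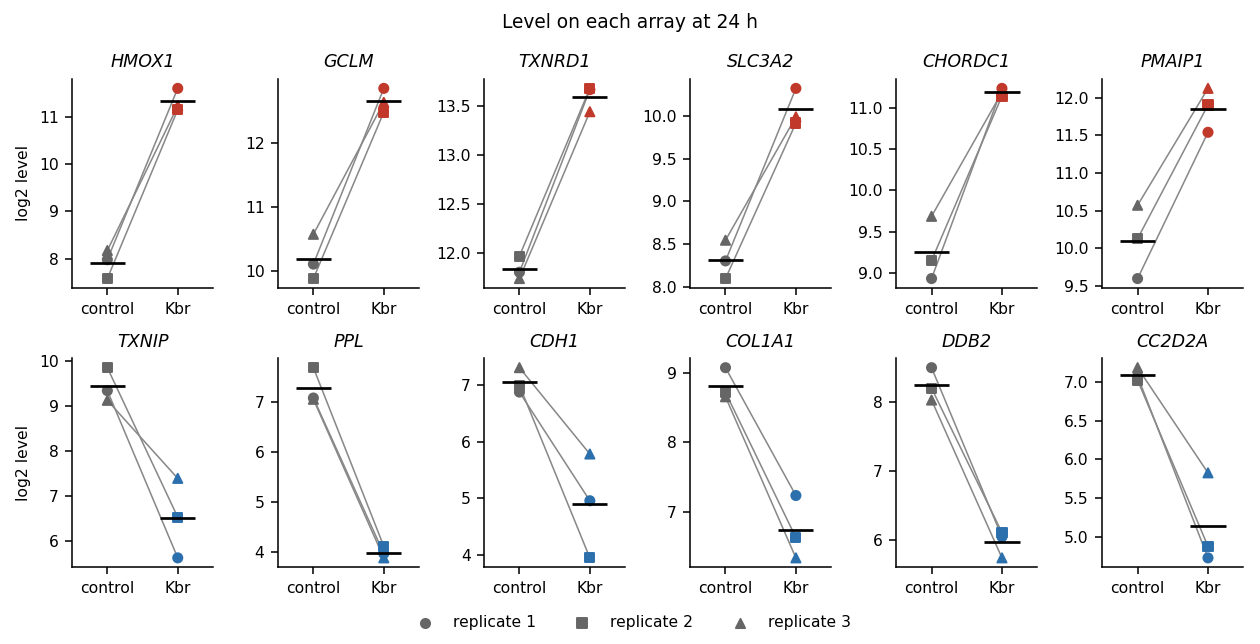
Log2 level on each 24 h array for 12 genes, with a line joining the control and Kbr array of the same replicate number, symbols for replicates 1 to 3 and a black bar at each group mean. In the top row all Kbr arrays lie above all control arrays, and in the bottom row all lie below, as for CDH1 at 4.90 ± 0.92 against 7.07 ± 0.22 (SD, n = 3 each).

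Many cytosolic chaperones rose, while no tested gene of the endoplasmic reticulum chaperone list was called. HSPH1, the HSP110 nucleotide exchange factor, read 12.77, 12.86 and 12.72 on the Kbr arrays and 11.09, 11.16 and 11.24 on the control arrays, a change of 1.62 (SE 0.10, adjusted p = 5.55e-06). CHORDC1 read 11.23, 11.14 and 11.19 on the Kbr arrays and 8.94, 9.15 and 9.69 on the control arrays, a change of 1.93 (SE 0.18, adjusted p = 9.09e-05). The closest arrays of the 2 groups were 1.48 and 1.45 apart. Of 10 tested HSP70 and HSP110 genes 6 rose and 0 fell, with HSPA14, a ribosome-linked HSP70, at 1.09 (adjusted p = 0.000189). Of 15 HSP90 genes and co-chaperones 9 rose and 1 fell (10 and 2 with the replicate block, and 5 rose with unsuffixed probe sets preferred). HSP90AA1 itself, at 14.86 ± 0.12 (SD, n = 3) on the control arrays, rose by 0.62, and its co-chaperones STIP1 and FKBP4 rose by 0.90 and 1.19 (limma adjusted p = 0.000601, 0.00188 and 0.000944). The fall was FKBP5, a glucocorticoid-responsive co-chaperone, at -0.70 (SE 0.18, adjusted p = 0.0127). HSF1 was not called at -0.20 (SE 0.16, adjusted p = 0.358).

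ZFAND2A, an arsenite-inducible proteasome adaptor, read 9.57, 9.54 and 9.80 on the Kbr arrays and 7.25, 7.30 and 7.78 on the control arrays and rose by 2.20 (SE 0.21, adjusted p = 9.8e-05). BAG3, BAG2 and HSPB8, which hand clients from chaperones to degradation, rose by 1.58, 1.08 and 1.05 (limma adjusted p = 0.00035, 0.000444 and 0.000232). In the J-protein family, which loads HSP70, 7 of 29 rose (24.1%) and 1 fell (9 and 3 with the replicate block), led by DNAJC2 (1.46), DNAJB4 (1.22), DNAJA1 (1.16) and DNAJB1 (1.09), with limma adjusted p-values of 4.22e-05, 0.000211, 0.000211 and 0.00224. The cytosolic chaperonin, the folding ring for actin and tubulin, and prefoldin had 8 of 12 members higher, CCT3 the most at 0.73 (adjusted p = 0.000977), and the count was 4 without any 1 of the Kbr arrays and 3 without control replicate 1.

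The proteasome, which degrades ubiquitin-tagged protein, rose in 19 of 41 tested members (46.3%) with a median change of 0.37, and 3 fell. Rises included subunits of the lid and base of the regulatory particle, with PSMD12 at 11.98, 12.11 and 12.09 on the Kbr arrays and 10.71, 10.99 and 11.14 on the control arrays, a change of 1.11 (SE 0.18, adjusted p = 0.00129), and PSMC4 and PSMC1 at 0.81 and 0.75 (limma adjusted p = 0.005 and 0.000864). The 3 falls were the interferon-inducible catalytic subunits PSMB9 (-0.81, SE 0.14, adjusted p = 0.00191) and PSMB8 (-0.37, SE 0.09, adjusted p = 0.0106) and the assembly factor PSMG4 (-1.15, SE 0.11, adjusted p = 9.15e-05), and the call of PSMB8 was lost after median centring. The count of rises was 9 without control replicate 1, 10 without Kbr replicate 3 and 12 without control replicate 2. In contrast, 0 of 27 tested genes of the endoplasmic reticulum stress list rose and 0 fell in limma, with HSPA5, its main chaperone, at 0.63 (SE 0.29, adjusted p = 0.119) and no overlap between its arrays. HSPA5 was called when only the 24 h arrays were fitted (adjusted p = 0.0163), with array weights (0.0198) and without Kbr 48 h replicate 3 (0.00938). Over this list 1 rose with the replicate block or after median centring. With unsuffixed probe sets preferred 2 rose and 1 fell, and 3 rose when only the 24 h arrays were fitted and 4 without Kbr 48 h replicate 3.

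**Figure D3:**
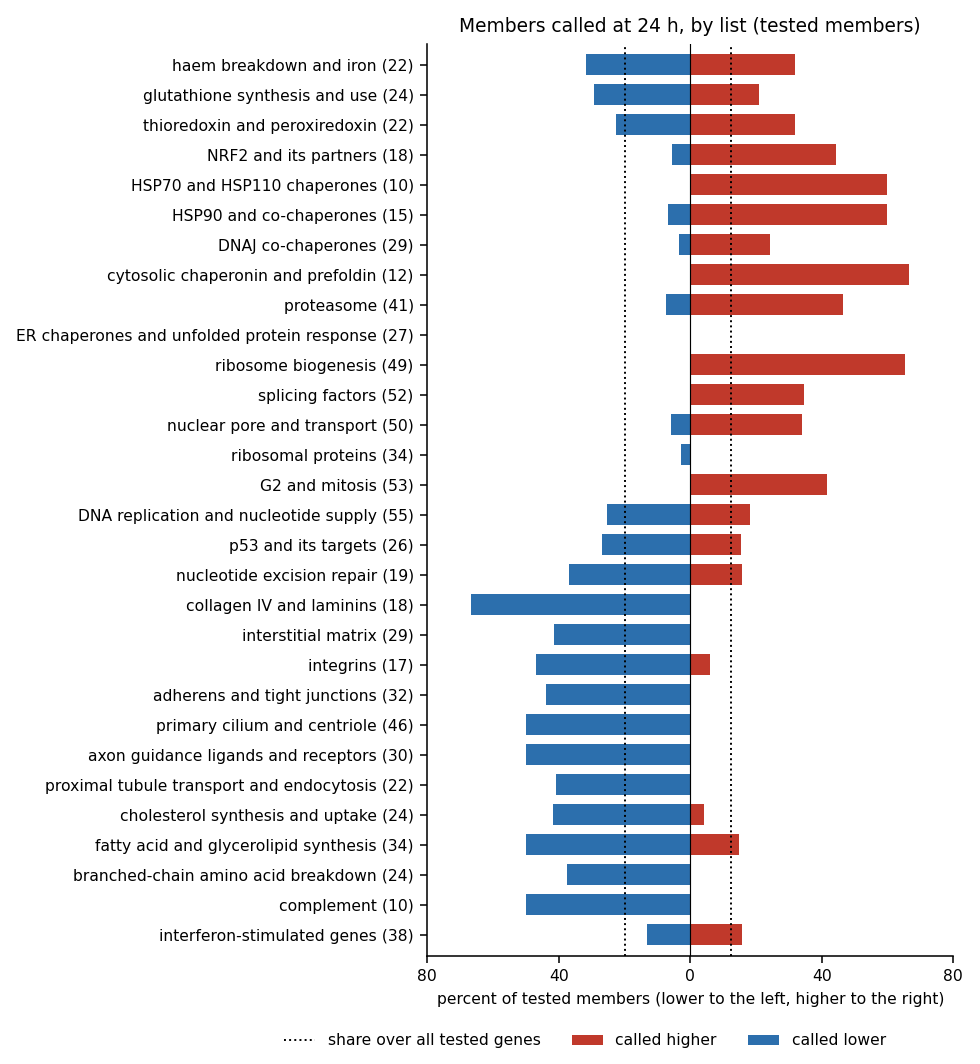
Share of tested members called higher (red, to the right) and lower (blue, to the left) in each of 30 gene lists, with the number of tested members in brackets and dotted lines at the shares over all tested genes, 12.4% and 20.0%. Chaperone, proteasome, ribosome biogenesis and mitosis lists extend to the right, and matrix, junction, cilium and transport lists extend to the left.

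Genes of ribosome assembly rose together while those of the ribosome itself did not. Of 49 tested members of the ribosome biogenesis list 32 rose (65.3%) and 0 fell, with a median of 0.62, and 24 to 32 rose whichever 24 h array was left out. UTP15, a factor of the small-subunit processome, read 8.97, 9.47 and 9.08 on the Kbr arrays and 8.08, 7.99 and 8.14 on the control arrays and rose by 1.10 (SE 0.19, adjusted p = 0.00178). PNO1 and BYSL, which mature the small subunit, and NOP2, an rRNA methyltransferase, rose by 1.02, 1.00 and 1.00, and nucleolin, NCL, by 0.57 (limma adjusted p = 0.000667, 0.00262, 0.000364 and 0.00129). Among 34 tested ribosomal protein genes 0 rose and 1 fell (2 with the replicate block), with a median of -0.01. That fall was in RPS27L (-0.54, SE 0.15, adjusted p = 0.0182), a p53-regulated paralogue, and its call was lost without Kbr replicate 1 or control replicate 2, after median centring and with unsuffixed probe sets preferred. Control probe sets for 18S ribosomal RNA were higher on the Kbr arrays by 0.49 on average and those for 28S by 0.57 (exact two-sided permutation p = 0.1 each, the smallest that 3 against 3 arrays allow), and their part in the list was not tested.

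RNA processing and transport followed in part. Of 52 splicing factors 18 rose and 0 fell (31 and 1 with the replicate block, and 11 rose without control replicate 1), with LUC7L3, which joins the U1 particle, at 0.85 and PRPF4, of the U4/U6 particle, at 0.82 (limma adjusted p = 0.000631 and 0.000342). SNRNP48, a protein of the minor spliceosome outside that list, read 8.87, 8.80 and 8.77 on the Kbr arrays and 7.16, 7.12 and 7.36 on the control arrays, with 1.41 between the closest arrays of the 2 groups, and rose by 1.60 (SE 0.10, adjusted p = 5.55e-06). Of 39 initiation factors 10 rose and 1 fell (14 and 2 with the replicate block, and none fell without any 1 of the 24 h arrays), EIF3J by 0.85 (adjusted p = 0.000158). Of 50 nuclear pore and transport genes 17 rose and 3 fell (24 and 6 with the replicate block), and the rises numbered 9 without Kbr replicate 1, 10 without Kbr replicate 2 or control replicate 1 and 11 without control replicate 2. The exportin for tRNA, XPOT, rose by 0.78 and the importin KPNA2 by 0.62, while TPR, the basket protein of the pore, and IPO9, an importin, were lower at -0.58 and -0.50 (limma adjusted p = 0.00281, 0.0092, 0.00229 and 0.00677).

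Mitotic genes were higher and replication genes went both ways. Of 53 tested members of the G2 and mitosis list 22 rose (41.5%) and 0 fell, with a median of 0.33. CDK1, the mitotic kinase, read 13.04, 13.02 and 13.07 on the Kbr arrays and 12.35, 12.40 and 12.54 on the control arrays and rose by 0.61 (SE 0.09, adjusted p = 0.000923), its cyclin CCNB1 rose by 0.68, the spindle checkpoint gene MAD2L1 by 0.77 and the midbody kinesin KIF23 by 0.79 (limma adjusted p = 0.006, 0.00395 and 0.00872). The count was 12 without control replicate 1, 13 without Kbr replicate 3 and 14 without control replicate 2. In DNA replication 10 of 55 rose (18.2%) and 14 fell (25.5%), each a little above the background share. The origin subunit ORC6 rose by 0.95, while polymerase alpha, POLA1, its primase PRIM1 and the helicase subunits MCM5 and MCM2 were lower at -0.93, -0.86, -0.86 and -0.51 (limma adjusted p = 0.000114, 0.000407, 0.00177, 0.00223 and 0.00353), and 5 rose without control replicate 1. In bulk samples a change in the number of cells of a kind, such as those in mitosis, and a change in RNA per cell cannot be told apart.

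Targets of p53 went both ways. Of 26 tested, 4 rose (15.4%) and 7 fell (26.9%), near the background shares, with a median of 0.02. The rises numbered 2 without control replicate 1 and 8 after quantile normalisation. The cell cycle inhibitor CDKN1A rose by 0.62 (adjusted p = 0.0132). DDB2, a sensor of ultraviolet damage, read 6.04, 6.10 and 5.73 on the Kbr arrays and 8.50, 8.20 and 8.03 on the control arrays, with 1.93 between the closest arrays, a change of -2.28 (SE 0.23, adjusted p = 0.000134). TP53INP1, XPC and the death gene BAX were lower at -1.09, -1.05 and -0.71 (limma adjusted p = 0.00201, 0.000692 and 0.00181). PMAIP1, which encodes the death-promoting protein NOXA, rose by 1.76 (SE 0.23, adjusted p = 0.000495) and was the 1 member of 14 in the BCL2 list to rise, against 3 that fell, or 5 with the replicate block.

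Nucleotide excision repair, which removes bulky lesions, had 7 of 19 members lower (36.8%) and 3 higher, with ERCC1, an incision endonuclease subunit, at -0.90 (SE 0.20, adjusted p = 0.00687) beside DDB2 and XPC. The rises numbered 1 without any 1 of the Kbr arrays. In base excision repair, which removes oxidised bases, 3 of 18 rose (16.7%) and 4 fell (22.2%), near the background shares. The glycosylase NEIL3 read 10.09, 10.12 and 10.12 on the Kbr arrays and 8.32, 8.71 and 8.80 on the control arrays and rose by 1.50 (SE 0.17, adjusted p = 0.000221), whereas the scaffold XRCC1 and the alkyl-base glycosylase MPG were lower at -1.18 and -1.15 (limma adjusted p = 0.00267 and 0.00045).

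Stress transcription factors divided within families. In AP-1, 2 of 9 tested members rose (22.2%) and 3 fell (33.3%). FOSL1 rose by 2.10, a call lost with no filter and without Kbr replicate 1, Kbr replicate 3, control replicate 1 or control replicate 2. JUN rose by 1.00 while JUNB and JUND were lower at -1.04 and -0.75 (limma adjusted p = 0.00261, 0.00263 and 0.00696). Of the 3 probe sets of JUND over the filter only 1 was called lower, whereas all 4 of JUN were called higher. EGR1, an early growth factor response gene, read 9.36, 9.58 and 9.34 on the Kbr arrays and 11.10, 11.40 and 11.23 on the control arrays, with every Kbr array below every control array, a change of -1.82 (SE 0.15, adjusted p = 5.49e-05). In the list of early factors that holds EGR1, 1 of 22 rose (4.5%) and 6 fell (27.3%). The phosphatase DUSP5, which restrains ERK in the nucleus, rose by 1.18 (adjusted p = 0.0021). Of 17 tested members of its list 3 rose and 3 fell (17.6% each), and each count was as low as 1 with 1 array at 24 h left out. Among 34 genes of the integrated stress list 3 rose and 3 fell in the fit, and 8 rose when only the 24 h arrays were fitted. ATF5 rose by 1.27 and the transsulphuration enzyme CBS was lower at -2.26 (limma adjusted p = 0.00373 and 0.000201). Of the 3 probe sets of ATF5 over the filter only 1 was called higher. ATF4 (0.25, SE 0.12, adjusted p = 0.144) and DDIT3 (0.93, SE 0.77, adjusted p = 0.383) were not called although their arrays did not overlap. DDIT3 was called when only the 24 h arrays were fitted (adjusted p = 0.00299), and its Kbr arrays at 48 h, which enter the shared spread, had an SD of 1.92.

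ADM, adrenomedullin, a vasodilator peptide often raised in low oxygen, read 8.49, 8.72 and 9.21 on the Kbr arrays and 5.92, 6.38 and 6.15 on the control arrays and rose by 2.65 (SE 0.30, adjusted p = 0.000232), the second largest rise among called genes. In the hypoxia-type list 3 of 24 were higher (12.5%) and 5 lower (20.8%), near the background shares. The glucose carrier SLC2A1 rose by 0.59, the mitochondrial kinase PDK1 was lower at -0.89 (limma adjusted p = 0.0111 and 0.00127), and VEGFA was not called at 0.87 (SE 0.37, adjusted p = 0.0912). VEGFA was called when only the 24 h arrays were fitted (adjusted p = 0.00668), with array weights (0.0142), with probe sets averaged (0.0415) and without Kbr 48 h replicate 3 (0.00895). Metallothioneins, small zinc-binding proteins whose probe sets can share transcripts among the close paralogues, were lower where called, with MT1F at -0.72 (SE 0.17, adjusted p = 0.00918) and MT1E at -0.60 (SE 0.15, adjusted p = 0.0104). The zinc transporter SLC39A13 was lower at -1.55 (SE 0.18, adjusted p = 0.000251). Of 24 tested members of that list 5 fell (20.8%) and 3 rose (12.5%), near the background shares. With the replicate block 11 fell, and the rises numbered 1 without Kbr replicate 2, Kbr replicate 3 or control replicate 1.

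Genes of the cell surface, junctions and matrix included some of the largest falls. SCEL, sciellin, a protein of the cornified envelope, read 6.51, 7.25 and 6.29 on the Kbr arrays and 10.19, 10.70 and 9.48 on the control arrays. PPL, periplakin, which ties desmosomes to filaments, read 3.98, 4.12 and 3.89 on the Kbr arrays and 7.07, 7.68 and 7.05 on the control arrays. The closest arrays of the groups lay 2.23 and 2.93 apart, and the changes were -3.44 (SE 0.36, adjusted p = 0.000162) and -3.27 (SE 0.19, adjusted p = 5.55e-06), where 2 of 3 Kbr arrays of PPL were under 4. JUP, plakoglobin, fell with them (-1.51, SE 0.20, adjusted p = 0.000543). In this list 4 of 12 tested members fell, and 8 with the replicate block. Among 32 adherens and tight junction genes 14 fell (43.8%) and 0 rose (21 and 1 with the replicate block, and 2 rose after quantile normalisation). E-cadherin, CDH1, which joins epithelial cells, read 4.96, 3.95 and 5.79 on the Kbr arrays and 6.88, 7.00 and 7.31 on the control arrays, cingulin, CGN, which sits under tight junctions, read 3.44, 4.25 and 3.78 on the Kbr arrays and 6.67, 6.35 and 6.70 on the control arrays, and occludin, OCLN, read 7.54, 7.82 and 8.19 on the Kbr arrays and 8.91, 8.95 and 9.12 on the control arrays. Kbr arrays were below control arrays throughout, 1 of them under 4 for CDH1 and 2 for CGN, and the changes were -2.17 (SE 0.37, adjusted p = 0.00173), -2.75 (SE 0.29, adjusted p = 0.000156) and -1.14 (SE 0.21, adjusted p = 0.00276). In the keratin and filament list 2 of 12 fell (16.7%) and 1, KRT10, rose (8.3%), both below the background shares, and 6 fell with the replicate block. The falls were KRT19 and KRT80, with log2 changes of -1.51 and -1.72 (limma adjusted p = 0.000562 and 0.0018), while KRT18, a keratin of all simple epithelia, was not called at -0.12 (SE 0.15, adjusted p = 0.564).

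Below the cells, the basement membrane list had 12 of 18 tested members lower (66.7%) and 0 higher, with a median of -0.62, and 7 were lower without Kbr replicate 2 or control replicate 1. Collagen IV chains COL4A1 and COL4A5, laminin chains LAMC1 and LAMA5 and the linker NID2 fell, with log2 changes of -0.70, -0.81 or beyond (all 3 Kbr arrays of COL4A5 were under 4 and were set to it), -0.47, -0.96 and -1.23 (limma adjusted p = 0.00563, 0.00564, 0.00186 and 8e-05 in that order, without COL4A5). Their receptors fell as well, in 8 of 17 integrin genes, with ITGB4, the hemidesmosome subunit, at -2.10 (SE 0.33, adjusted p = 0.0011) and ITGA6, its partner, at -0.66 (SE 0.11, adjusted p = 0.00177). That count was 3 without Kbr replicate 2 or control replicate 3 and 4 without control replicate 1, and ITGAE, the subunit that binds E-cadherin, was the 1 that rose (0.81, SE 0.16, adjusted p = 0.0035).

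The interstitial matrix list had 12 of 29 members lower, 20 with the replicate block, and 0 higher. COL1A1, the main fibrillar collagen chain, read 7.23, 6.63 and 6.33 on the Kbr arrays and 9.08, 8.72 and 8.66 on the control arrays, with all Kbr arrays below all controls, a change of -2.09 (SE 0.21, adjusted p = 0.000114). The glycoprotein TNC and the proteoglycan DCN fell, with log2 changes of -1.14 and -0.99 (limma adjusted p = 0.000435 and 0.0011). COL1A1, DCN and LUM are also the 3 fibroblast markers of 7 that passed the filter, and the summed linear level over the 7 was 2741 to 3660 on Kbr arrays and 5288 to 7535 on control arrays, while the 4 others stayed under the filter. LUM was lower at -0.78, a call lost with no filter and without Kbr replicate 3 or control replicate 1. The part of any fibroblast-like cells in these falls was not tested.

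**Figure D4:**
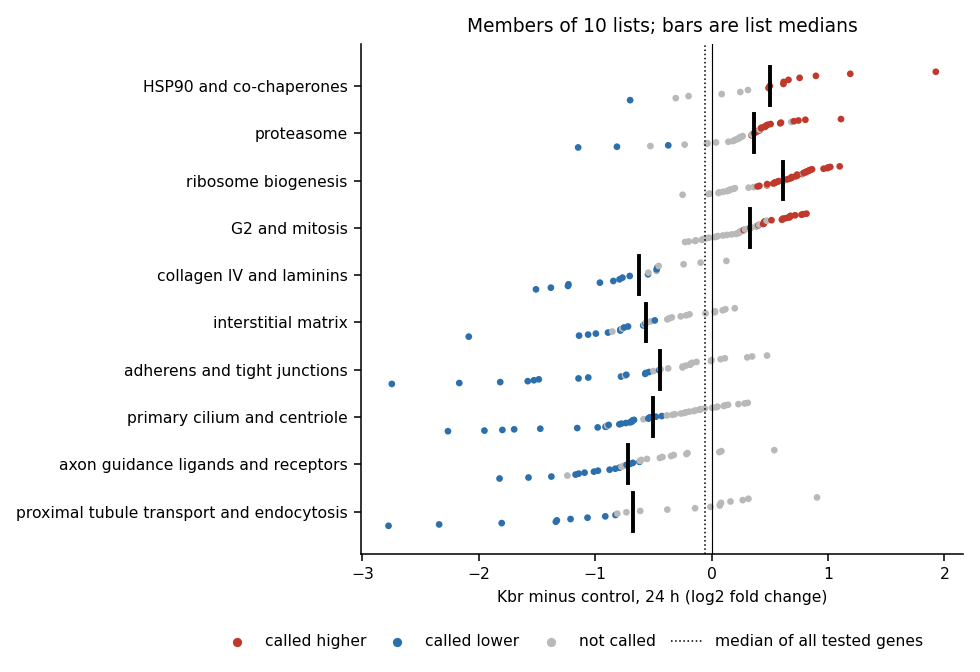
Log2 fold change of every tested member of 10 lists, each point 1 gene, coloured by call, with a black bar at the list median and a dotted line at the median of all tested genes (-0.06). Medians reach 0.62 for ribosome biogenesis and -0.71 for axon guidance, and the matrix, junction and cilium lists hold no called rise as deposited.

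The primary cilium, a sensory antenna built by intraflagellar transport (IFT) and guarded by a transition zone, was lower in 23 of 46 tested genes and higher in 0, with a median of -0.50. Between 18 and 23 fell whichever 24 h array was left out, and 15 fell after quantile normalisation, with 2 members higher, against 1 higher after median centring. In the transition zone TMEM107 read 4.85, 4.83 and 4.71 on the Kbr arrays and 7.48, 7.47 and 6.87 on the control arrays, B9D1 read 5.49, 5.24 and 6.22 on the Kbr arrays and 8.09, 7.65 and 8.01 on the control arrays and CC2D2A read 4.73, 4.88 and 5.83 on the Kbr arrays and 7.08, 7.02 and 7.19 on the control arrays. The control arrays of each stayed above 6.8 and the Kbr arrays below 6.3, and the changes were -2.48 (SE 0.15, adjusted p = 5.55e-06), -2.27 (SE 0.30, adjusted p = 0.000518) and -1.95 (SE 0.25, adjusted p = 0.000367). BBS1, of the membrane-protein coat, DYNC2LI1, of the return motor, and IFT88, of the outward train, fell, with log2 changes of -1.80, -1.70 and -1.15 (limma adjusted p = 0.000541, 5.55e-05 and 0.000856). TMEM107 was not a member of the list and is named as 1 of the 36 largest falls.

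Signalling genes held more falls than rises in the lists below, as did all tested genes (20.0% lower and 12.4% higher). In axon guidance, a family of contact cues also used by epithelia, 15 of 30 fell and 0 rose (21 and 1 with the replicate block), with the semaphorins SEMA4A and SEMA3A at -1.82 and -1.57 and the ephrin receptor EPHA4 at -1.38 (limma adjusted p = 0.0017, 0.00725 and 0.00334). That count was 9 without Kbr replicate 2 and 7 without control replicate 1. The receptor EGFR, whose ligand is in the medium, fell by 0.60, and IRS1, which carries the insulin signal, fell by 0.94 (limma adjusted p = 0.00817 and 0.000245). In the Wnt list 6 of 18 fell and 2 rose, with 3 falling without control replicate 1 and 1 rising without Kbr replicate 1 or control replicate 2. MAML2, a Notch coactivator whose Kbr arrays were all under 4, fell by 0.95 or more. The Wnt receptors FZD1 and FZD2 fell, with log2 changes of -1.19 and -1.24 (limma adjusted p = 0.000182 and 0.00205). FZD7, of the same receptor family, rose by 1.29 (adjusted p = 0.0155), a call lost with no filter and without Kbr replicate 1 or control replicate 2. ZNRF3, a ligase that removes these receptors, rose by 0.84 (adjusted p = 0.00324). In the TGF-beta superfamily 10 of 40 fell and 1 rose (18 and 3 with the replicate block, and 6 fell without control replicate 1), with the inhibitor SMAD7 at -0.77 (SE 0.18, adjusted p = 0.00964). Among nuclear receptors 7 of 17 fell, the mineralocorticoid receptor NR3C2 at -1.80 (adjusted p = 0.0137), and 2 to 4 fell without Kbr replicate 1, Kbr replicate 3, control replicate 1 or control replicate 2. The clock output factor HLF read 4.37, 5.29 and 5.39 on the Kbr arrays and 7.68, 8.08 and 7.76 on the control arrays and fell by 2.82 (SE 0.32, adjusted p = 0.000232). PER2, under 4 on 2 of 3 Kbr arrays, was lower at -1.55 and NR1D2 higher at 0.81 (limma adjusted p = 0.0113 and 0.0122).

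Of what tubule character HK-2 cells showed, much was lower with Kbr. In the proximal transport list 9 of 22 tested members fell (40.9%) and 0 rose. In other fits 2 rose with the replicate block or after quantile normalisation, and 1 after median centring, with an offset of 32 or without control replicate 2. SLC17A3, an organic anion and urate carrier, read 5.70, 5.79 and 6.73 on the Kbr arrays and 8.45, 8.49 and 8.29 on the control arrays. SLC3A1, of the cystine and dibasic amino acid carrier, read 6.67, 6.58 and 6.58 on the Kbr arrays and 8.86, 8.57 and 7.81 on the control arrays. The groups did not overlap, and the changes were -2.34 (SE 0.28, adjusted p = 0.000275) and -1.80 (SE 0.30, adjusted p = 0.00138). The water and glycerol channel AQP3, typical of later nephron segments, read 3.77, 3.93 and 3.33 on the Kbr arrays and 7.00, 7.25 and 5.11 on the control arrays and fell by 2.45 or more with the Kbr arrays, all under 4, set to 4. GATM, the first enzyme of creatine synthesis and a tubule marker, fell by 0.91 (adjusted p = 0.00152), and the Iroquois factors IRX3 and IRX5 fell, with log2 changes of -1.26 and -1.47 (limma adjusted p = 0.00162 and 0.00124). PAX8, the kidney lineage factor, rose by 0.55 (adjusted p = 0.0188), a call lost without Kbr replicate 1, Kbr replicate 3, control replicate 1 or control replicate 2. The injury list, genes known to rise in damaged tubules, had 1 of 18 higher and 6 lower, 10 with the replicate block. HAVCR1, which encodes the injury marker KIM-1, read 10.23, 10.41 and 10.81 on the Kbr arrays and 11.28, 11.47 and 11.33 on the control arrays and fell by 0.88 (SE 0.17, adjusted p = 0.00322). VCAM1, an adhesion receptor whose Kbr arrays were all under 4, fell by 2.24 or more, and the cytokine IL18 was the 1 that rose, by 0.61 (limma adjusted p = 0.00645).

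Lipid synthesis genes were called lower more often than the background. In cholesterol synthesis 10 of 24 fell (41.7%) and 1 rose, with the sterol reductase TM7SF2 at -1.92 (SE 0.23, adjusted p = 0.000269), the cyclase LSS at -0.92 (SE 0.14, adjusted p = 0.00079) and the sterol sensor partner INSIG1 at -0.93 (SE 0.13, adjusted p = 0.000689). In fatty acid and glycerolipid synthesis 17 of 34 fell and 5 rose (2 without Kbr replicate 1 or control replicate 1, and 3 without any of the other 24 h arrays except control replicate 3). The regulator SREBF1 and the acetate-activating enzyme ACSS2 fell, with log2 changes of -1.11 and -1.79 (limma adjusted p = 0.00078 and 5.49e-05). GPAT3, an enzyme that starts triacylglycerol synthesis, instead read 8.81, 9.04 and 8.85 on the Kbr arrays and 6.44, 6.01 and 6.82 on the control arrays, with 1.99 between the closest arrays of the groups, and rose by 2.48 (SE 0.23, adjusted p = 8e-05). Its mitochondrial counterpart GPAM rose by 0.89 (adjusted p = 0.00179), while SLC27A2, a fatty acid carrier and activating enzyme of the proximal tubule, fell by 2.56 (adjusted p = 6.47e-05).

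In mitochondria the breakdown of branched-chain amino acids was lower in 9 of 24 members and higher in 0, including MCEE and MMUT, successive enzymes of propionate use, at -1.45 and -0.93 (limma adjusted p = 0.00079 and 0.000667). HOGA1, which cleaves hydroxyoxoglutarate in the kidney and liver, read 4.62, 3.64 and 2.90 on the Kbr arrays and 7.35, 7.19 and 6.63 on the control arrays with 2 of 3 Kbr arrays under 4, and fell by 3.34 (SE 0.46, adjusted p = 0.000566), or by 2.85 with levels under 4 set to 4. In the citric acid cycle 8 of 19 fell, with IDH2 at -1.02, and 1 rose, IDH3A at 0.46 (limma adjusted p = 0.00176 and 0.0103), and 4 to 5 fell without Kbr replicate 1, Kbr replicate 3, control replicate 1 or control replicate 2. Respiratory chain genes had 11 of 64 lower and 1 higher, which was near the background share of falls. That count ranged from 2 without Kbr replicate 1 to 22 with the replicate block, and was 3 without control replicate 1 or 2, 4 without Kbr replicate 3 and 6 without Kbr replicate 2. The pyrimidine nucleotide carrier SLC25A33 read 9.94, 10.02 and 9.84 on the Kbr arrays and 8.59, 8.63 and 8.74 on the control arrays and rose by 1.28 (SE 0.09, adjusted p = 1.22e-05), and ODC1, the entry enzyme of polyamine synthesis, rose by 1.30 (adjusted p = 0.00022).

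Immune genes split by class. Complement fell in 5 of 10 tested members and rose in 0, with the protease C1RL at 5.55, 5.15 and 4.21 on the Kbr arrays and 8.27, 7.79 and 7.55 on the control arrays, a change of -2.90 (SE 0.33, adjusted p = 0.000232), and C5 and C3 at -2.07 and -1.18 (limma adjusted p = 0.00566 and 0.00281). Interferon-stimulated genes had 6 of 38 higher and 5 lower (8 and 11 with the replicate block), near the background in each direction, and 3 were lower without any 24 h array other than Kbr replicate 2. Rises included the IFIT family, which binds foreign RNA. IFIT1 read 9.99, 10.83 and 10.20 on the Kbr arrays and 8.37, 9.16 and 8.56 on the control arrays, IFIT2 read 8.80, 9.73 and 9.08 on the Kbr arrays and 7.65, 8.11 and 7.70 on the control arrays and IFIT3 read 10.57, 10.66 and 10.63 on the Kbr arrays and 9.54, 9.46 and 9.57 on the control arrays. Replicate 2 was the highest Kbr array in all 3 genes and the highest control array in IFIT1 and IFIT2, and the changes were 1.64 (SE 0.38, adjusted p = 0.00757), 1.38 (SE 0.30, adjusted p = 0.00604) and 1.10 (SE 0.13, adjusted p = 0.000301). IFITM1, a membrane barrier to viruses, fell by 1.53 (adjusted p = 0.00801), and TNFSF10, a death ligand counted with the cytokines, fell by 1.89 (adjusted p = 0.000232).

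Most genes called at 24 h were called in the same direction at 48 h, 1238 of 1315 rises and 1954 of 2114 falls. Over all tested genes 6306 (59.6%) were called at 48 h in either direction. The 2 comparisons use separate control arrays but share 1 fit and its spread. Same-numbered control arrays at 24 h and 48 h also deviated together (r of 0.527, 0.594 and 0.568), so the 2 times are not independent. The test of the difference between the effects called 590 genes (5.58%), of which 550 were larger in size at 48 h with the same sign, 3 smaller with the same sign and 37 of opposite sign. That count was 136 without control replicate 3, 342 without control replicate 2, 159, 190 and 236 without Kbr replicates 1, 2 and 3, 1507 without Kbr 48 h replicate 3 and 2140 with the replicate block. HMOX1 stood at 3.41 at 24 h and 3.77 at 48 h, a difference of 0.36 that was not called (adjusted p = 0.57), whereas ADM went from 2.65 to 4.30 (difference 1.65, adjusted p = 0.0484). EFEMP1, a matrix glycoprotein, fell by 2.12 at 24 h. Its Kbr arrays at 48 h were all under 4, and with these set to 4 its change there was -4.37 or beyond and the difference -2.26 or beyond (adjusted p = 0.00904 for the fitted difference). SDF2L1, an endoplasmic reticulum co-chaperone, was not called at 24 h (0.26, SE 0.54, adjusted p = 0.749) and stood at 3.45 at 48 h (difference 3.19, adjusted p = 0.0399). IFIT3 ran the other way, from 1.10 at 24 h to 0.04 at 48 h (difference -1.06, adjusted p = 0.0156).

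**Figure D5:**
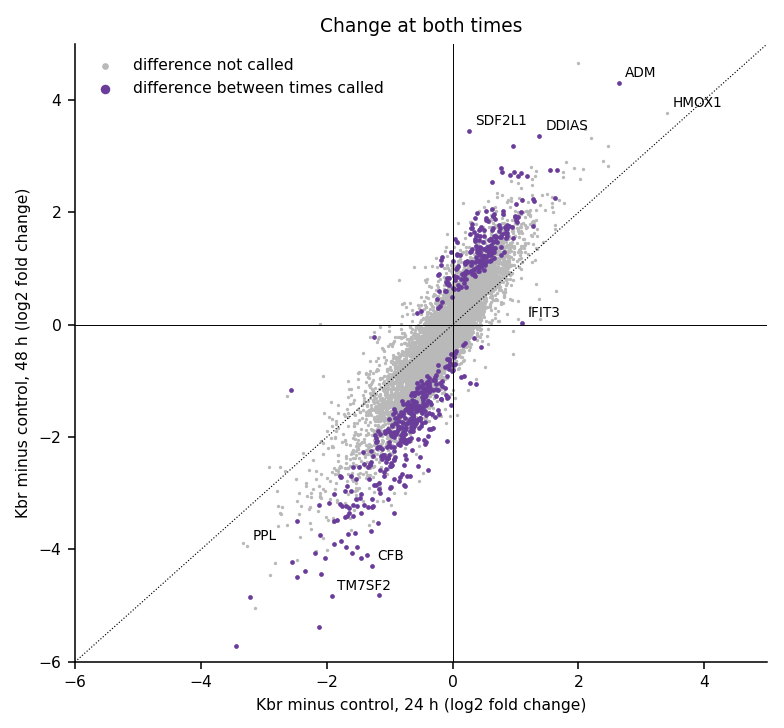
Log2 fold change at 48 h against that at 24 h for the 10574 tested genes, each point 1 gene, purple where the difference between the 2 effects was called (590 genes), with a dotted line of equal change. Most purple points lie steeper than the line, away from 0, and IFIT3 lies near 0 at 48 h.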

How the data were processed

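Expression was measured on 12 Affymetrix arrays carrying 54675 probe sets. The deposited values are log2 levels that the authors made with GCRMA (per the submitters' processing notes), with no counts or depth. Normalisation between arrays can hide a shift common to most genes. Probe sets with 1 gene symbol (41091) were kept, and those with several (1801), none (11721) or Affymetrix control names (62) were not used for genes. The probe set with the highest mean stood for its gene, and genes over log2 4 on at least 3 arrays were tested.

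The main fit used limma 3.58.1 (R 4.3.3) on group means of all 12 arrays with an empirical Bayes spread, so p-values rest on arrays labelled as biological replicates of 1 line and measure the spread between them. The fit was tested on simulated data. Same-numbered arrays deviated together (r of 0.232 to 0.634 over 18 pairs, against -0.378 to -0.004 for 36 differently numbered ones), so a fit with the replicate number as a block was run beside it.

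The members and gene lists were chosen with earlier results of these data known. Genes eligible to be named were set by rule: the 36 largest non-overlapping rises and falls with all pairs of 1 sign, up to 4 called genes per list and direction, anchor genes of each list, the 6 largest changes across log2 4 and the 5 largest called time differences each way. Only a part of these is named in the text. ALAS1, CPOX, LAMA5 and LAMC1 were named after their values were seen.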

Additional observations from a re-analysis of the deposited data

Results flagged for a closer look

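The test of the 48 h effect minus the 24 h effect, fitted with limma over all 12 arrays, passed an adjusted p of 0.05 for 47 of the genes named above. BACH1, FOSL1 and KRT10 were not counted there, and the log2 differences follow. Rises that were larger at 48 h were those of ADM (1.65), DUSP5 (1.47), JUN (1.14), UTP15 (1.13), NQO1 (1.10) and CDKN1A (1.05). The same held for SLC2A1 (0.94), HSPA14 (0.92), ORC6 (0.79), ALAS1 (0.71), HSPH1 (0.63) and SLC25A33 (0.47). SDF2L1, not called at 24 h, differed by 3.19.

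Among falls of the surface, matrix, junction and cilium genes, the 48 h value was lower by -3.26 in EFEMP1, -2.28 in SCEL, -1.39 in BBS1, -1.22 in LUM, -1.20 in TNC and -1.07 in ITGA6. It was lower by -1.02 in TMEM107, -1.01 in LAMA5, -0.91 in DCN, -0.72 in NID2, -0.70 in FZD1 and -0.58 in LAMC1. Among transport and metabolic genes the differences were -2.90 for TM7SF2, -2.05 for SLC17A3, -2.02 for SLC40A1, -1.67 for SLC27A2, -1.12 for IDH2, -0.90 for ACSS2 and -0.74 for LSS. For H6PD and PGLS, of NADPH supply, they were -1.90 and -1.25. The glutathione enzymes differed by -1.60 (GSTZ1), -1.10 (GSTK1) and -0.84 (GSTO2), the metallothioneins by -1.34 (MT1F) and -1.11 (MT1E), and the kidney factor IRX5 by -1.61. Immune and p53-linked genes differed by -1.64 (C3), -1.59 (TNFSF10), -1.23 (TP53INP1), -1.0 (PSMB9) and -0.65 (PSMB8), and ENDOD1 by -1.63. IFIT3 was the 1 gene of the 47 whose rise was smaller at 48 h (-1.06).

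All 3 Kbr arrays at 48 h were under 4 for EFEMP1, SLC40A1 and TMEM107, and 2 of 3 were for SCEL, TM7SF2 and SLC17A3. With these set to 4 the differences of the first 3 were -2.26, -1.33 and -0.74, the least these data allow. ENDOD1 was under 4 with Kbr at both times, so its difference has no such bound.

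Outside the gene measurements, the control probe sets for ribosomal RNA were higher on the Kbr arrays at 24 h. The 3 sets for 18S averaged 7.82, 8.35 and 8.24 on the Kbr arrays and 7.53, 7.65 and 7.75 on the control arrays, a difference of 0.49, and the 2 sets for 28S averaged 9.86, 10.4 and 9.93 against 9.54, 9.38 and 9.55, a difference of 0.57.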

How the results depend on the processing

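Of 194 genes named and tested, which leave out BACH1, FOSL1 and KRT10, 179 kept their direction and their side of the threshold under all alternatives run, 10 lost their call under some alternative, 4 were called only under some alternative, and HSF1, which was not called, changed sign after quantile normalisation (0.076). The count of called genes was 1830 at an adjusted p under 0.01, with 684 higher and 1146 lower, and quantile normalisation gave 2155 higher. Genes changed at least 2-fold numbered 232 higher and 403 lower after quantile normalisation, 74 and 300 with an offset of 32 added on the linear scale, and 363 lower when probe sets were averaged. The count of genes whose effect differed between the times was 386 with no filter, 1777 with array weights, 2140 with the replicate block and 32 at an adjusted p under 0.01. Leaving out 1 of the 24 h arrays or Kbr 48 h replicate 3 (the other arrays at 48 h were not left out) gave 2255 to 3880 called genes (857 to 1515 higher and 1398 to 2365 lower) and 136 to 1507 genes that differed between the times. The highest counts came without Kbr 48 h replicate 3, an array that enters the 24 h comparison only through the shared spread. Counts of 1 gene went to 0 without any of several single arrays for falls in the NRF2 and J-protein lists and rises in the cholesterol and respiratory chain lists. Among these 194 genes, the replicate block changed only the call of NFE2L2. The cause of these changes was not tested. Limits lie in the signal, since levels below log2 4 are close to background, and in having 3 arrays a group.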

Other observations

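Gene families grouped by the letters their symbols share, which are no pathway lists, also differed in direction, and their shares are read against 12.4% higher and 20.0% lower over all tested genes. Of 331 tested zinc finger genes with symbols in ZNF, most of them predicted DNA-binding repressors, 53 rose and 25 fell (7.55%). Of 30 RBM genes, for RNA-binding motif proteins, 40.0% rose and 6.67% fell, and of 31 DDX genes, for RNA helicases, 32.3% rose and 3.23% fell. Ubiquitin-conjugating enzymes (UBE, 31 genes) rose in 29.0% with no fall, RNA polymerase subunits (POLR, 30 genes) rose in 30.0% and fell in 6.67%, and initiation factors (EIF, 49 genes) rose in 24.5%. Falls were only a little above the 20.0% share in transmembrane proteins named TMEM (134 genes, 26.1% lower) and TRIM ubiquitin ligases (9 of 36 lower). The same held for vacuolar sorting genes (VPS, 33 genes, 24.2% lower) and long non-coding RNAs named LINC (53 genes, 26.4% lower). Genes with symbols in AP and in TBC had larger shares of falls than these. Whether any family share differed from the background was not tested.

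Of 5192 tested genes with more than 1 probe set over the expression filter 1709 were called, and for 987 of these another set of the same gene was called in the same direction, while for 14 another set was called in the other direction. Genes named above with 2 such sets and only 1 called included ALAD, FZD2, GPAM and IDH3A.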
